A study of Rattus norvegicus with 20 samples.

Results

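The 10 nuclear receptors that sense drugs, bile acids, oxysterols, fatty acids and glucocorticoids in liver were followed across 4 dose groups of rats in a study of PBDE-47. They were taken by gene symbol and are Nr1i2, Nr1i3, Rxra, Nr1h4, Nr0b2, Nr5a2, Nr1h3, Ppara, Hnf4a and Nr3c1. Every probe set that the platform annotation gives to 1 of these symbols alone was used, which gave 15 probe sets of the 31042 tested and 10 of the 14217 genes with a single-symbol probe set. PBDE-47 is a congener of the polybrominated diphenyl ether flame retardants. All 20 livers came from the Wistar Han strain, and all animals, controls included, had corn oil by gavage at 5 mL/kg per day. Dams were dosed from gestation day 6 to postnatal day 4. The groups were corn oil alone (vehicle) and PBDE-47 at 0.1, 15 and 50 mg/kg per day, with 5 arrays each. Liver was taken from the left lobe at postnatal day 4, and total RNA was hybridised to Affymetrix rat arrays. Whether a sample is maternal or pup liver, and whether the 5 arrays of a group stand for 5 animals or litters, is not stated in the labels. A p-value here is therefore relative to the spread of these samples alone, and that spread may be technical.

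Values are robust multi-array average (RMA) values in log2 units, so a difference of 1 is a doubling of signal. The median of an array lay between 5.60 and 5.65. Levels of different probe sets cannot be set against each other, because each has its own probes, and values near 4 are mostly background. A difference was called at an adjusted p under 0.05 in a limma fit over all 31042 probe sets. The liver identity was borne out on every array: the mean of 8 hepatocyte genes, which include those for albumin and apolipoprotein A-I, lay between 14.17 and 14.29. Some arrays also carried transcripts of other tissues. The mean of 11 skeletal muscle genes exceeded that of the lowest array by over 2 log2 units on 1 vehicle array, 3 arrays at 0.1 mg/kg, 1 at 15 mg/kg and 3 at 50 mg/kg, and that of 11 exocrine pancreas genes on 1 array at 0.1 mg/kg and 2 at 15 mg/kg. All samples are labelled female, but the Y-linked Eif2s3y read 8.79 to 9.48 on all 20 arrays, and the 4 probe sets of Xist, the RNA of the inactive X chromosome, read 2.49 to 3.62. The labels do not say whether the sex given is that of the dams or of the sampled livers. Bright Eif2s3y with dim Xist on every array is the pattern of male tissue, which a dam does not have.

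Nuclear receptors are transcription factors that are switched on by small lipid-soluble molecules. CAR and PXR respond to drugs and pollutants and raise genes for cytochrome P450 enzymes, conjugating enzymes and exporters. FXR, LXR-alpha and PPAR-alpha read bile acids, oxysterols and fatty acids in the same way. These receptors, CAR and PXR mostly bind DNA as a pair with an RXR. A receptor can be turned on by its ligand, or moved into the nucleus as CAR is, with no change in the amount of its own transcript. The arrays measure only that transcript.

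The transcript levels of the receptors did not differ detectably between dosed and vehicle livers. Of the 15 probe sets, 0 were called at 0.1, 15 or 50 mg/kg against vehicle by limma with Benjamini-Hochberg adjustment. Over all probe sets the same test called 0% at 0.1 mg/kg, 0.116% at 15 mg/kg and 0.934% at 50 mg/kg, so a count of 0 among 15 is also what a set of this size would hold at the rate of the whole array. At an unadjusted p under 0.05 there was 1 receptor probe set at 0.1 mg/kg, 0 at 15 mg/kg and 1 at 50 mg/kg, while 6.87%, 12.1% and 13.0% of all probe sets had such a p. The smallest adjusted p was 0.633 at 0.1 mg/kg, 0.501 at 15 mg/kg and 0.287 at 50 mg/kg. The ranges of the 5 dosed and the 5 vehicle arrays overlapped for each of the 15 probe sets at each dose, while 1.24% of all probe sets had separate ranges at 0.1 mg/kg, 2.32% at 15 mg/kg and 2.96% at 50 mg/kg. With 1 probe set per gene, that of the highest mean, the 95% intervals of the 10 genes lay between 0.642-fold and 1.48-fold at 0.1 mg/kg, between 0.697-fold and 1.46-fold at 15 mg/kg and between 0.674-fold and 1.47-fold at 50 mg/kg. A receptor probe set would have been called at 50 mg/kg from a change of 0.34 log2 units (Nr1i2 and the dim Nr3c1 probe set) up to 0.94 (Nr0b2), given its own error and the p of the last probe set called.

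**Figure D1:**
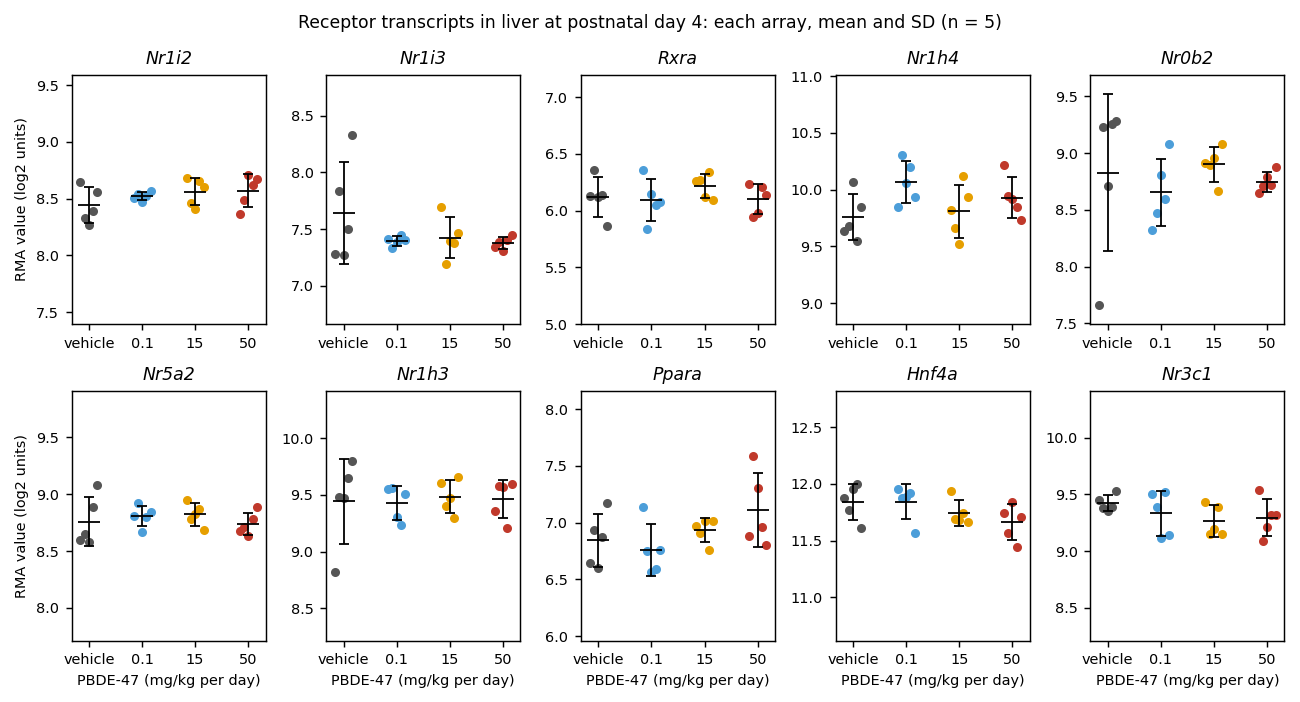
RMA value in log2 units (vertical axis, the same span in every panel) of the main probe set of each receptor, by dose of PBDE-47 (horizontal axis), with every array as a point and the mean and SD of 5 arrays as bars. The 4 groups overlap in every panel, and the widest spread is that of Nr0b2 and Nr1i3 in vehicle livers.

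Nr1i2 encodes PXR, the pregnane X receptor, which binds drugs, steroids and pollutants. Its values were 8.65, 8.33, 8.27, 8.39 and 8.56 in vehicle livers, 8.51, 8.55, 8.47, 8.53 and 8.57 at 0.1 mg/kg, 8.68, 8.46, 8.41, 8.66 and 8.61 at 15 mg/kg and 8.36, 8.48, 8.71, 8.62 and 8.67 at 50 mg/kg. Of the 5 arrays at 50 mg/kg, 3 lay within the range of the vehicle arrays, so the groups overlapped. The log2 difference was 0.13 at 50 mg/kg (95% interval -0.04 to 0.30, adjusted p = 0.532) and 0.12 at 15 mg/kg (adjusted p = 0.565). Nr1i2 was the only one of the 10 genes whose group means went up in the order of doses from vehicle on. No neighbouring means differed by more than the larger SD of their 2 groups, and the slope over dose order was not called (adjusted p = 0.470).

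Nr1i3 encodes CAR, the constitutive androstane receptor, which waits in the cytoplasm and enters the nucleus on exposure to phenobarbital-like compounds. It read 7.28, 7.84, 7.27, 7.50 and 8.33 in vehicle livers, 7.41, 7.33, 7.39, 7.45 and 7.40 at 0.1 mg/kg, 7.69, 7.19, 7.39, 7.38 and 7.47 at 15 mg/kg and 7.35, 7.39, 7.31, 7.40 and 7.45 at 50 mg/kg. One vehicle array, replicate 5, stood above all others, and the vehicle SD of 0.45 compares with 0.04, 0.18 and 0.05 at the 3 doses. The log2 difference at 50 mg/kg was -0.27 (95% interval -0.57 to 0.04, adjusted p = 0.456), and without vehicle replicate 5 it was -0.09. The means at 0.1 and 15 mg/kg also lay below vehicle, by log2 differences of -0.25 and -0.22, and all 3 values rest on the same 5 vehicle arrays.

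Rxra encodes RXR-alpha, the partner with which CAR, PXR, FXR, LXR and PPAR-alpha bind DNA. Its values ran from 5.84 to 6.35 over the 20 arrays, with a mean of 6.12 in vehicle livers, 6.09 at 0.1 mg/kg, 6.21 at 15 mg/kg and 6.10 at 50 mg/kg. The log2 difference at 50 mg/kg was -0.02 (95% interval -0.22 to 0.18). Neither of the other retinoid X receptors was called at 50 mg/kg. Rxrg read 6.84 to 7.46 at 50 mg/kg, against 6.47 to 7.03 in vehicle livers, a log2 difference of 0.52 (adjusted p = 0.173). Rxrb differed by -0.16 (adjusted p = 0.315).

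Nr1h4 encodes FXR, the bile acid receptor. It read 9.64, 9.68, 10.06, 9.55 and 9.85 in vehicle livers, 9.85, 10.31, 10.06, 10.20 and 9.93 at 0.1 mg/kg, 9.82, 9.66, 9.52, 10.12 and 9.93 at 15 mg/kg and 10.22, 9.94, 9.92, 9.85 and 9.73 at 50 mg/kg. The highest mean was at the lowest dose. The log2 difference there was 0.31 (95% interval 0.06 to 0.57, unadjusted p = 0.0181, adjusted p = 0.633), against 0.06 at 15 mg/kg and 0.17 at 50 mg/kg. That p was the smallest of the 15 probe sets at this dose.

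Nr0b2 encodes SHP, a receptor without a DNA-binding domain that FXR raises and that represses LRH-1 and HNF4-alpha. It read 7.66, 9.23, 8.71, 9.26 and 9.28 in vehicle livers, 8.32, 8.47, 8.80, 8.59 and 9.08 at 0.1 mg/kg, 8.91, 8.89, 8.96, 8.66 and 9.08 at 15 mg/kg and 8.64, 8.71, 8.79, 8.72 and 8.88 at 50 mg/kg. The vehicle arrays held both the lowest and the 3 highest values of the 20, with an SD of 0.69, against 0.30, 0.15 and 0.09 at 0.1, 15 and 50 mg/kg. The log2 difference at 50 mg/kg was -0.08 (95% interval -0.55 to 0.39, adjusted p = 0.925). Vehicle replicate 1 decides that value: without it the difference was -0.37 at 50 mg/kg and -0.22 at 15 mg/kg, where it was 0.07 with all arrays, and neither was called.

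The Nr0b2 promoter is shown because LRH-1, the product of Nr5a2, is known in rodents to act on it. It is the 250 bases before the start of the gene, chr5:151062910-151063159 on the plus strand of GRCr8, from RefSeq, and capitals mark TCAAGG, the half-site that LRH-1 binds as a monomer.
Nr0b2: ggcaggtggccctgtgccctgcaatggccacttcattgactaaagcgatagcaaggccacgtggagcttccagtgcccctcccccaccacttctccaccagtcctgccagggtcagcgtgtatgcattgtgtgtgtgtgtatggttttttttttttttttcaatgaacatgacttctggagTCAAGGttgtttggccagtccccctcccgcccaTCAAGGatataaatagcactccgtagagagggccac
The search covered both strands of 300-base windows from 250 bases before to 50 after each start. TCAAGG began 69 and 36 bases before the Nr0b2 start, and 14.8% of the 33469 windows of the table held it on either strand. RefSeq windows were found for 9 of the 10 receptors, and Ppara was the only other one with the half-site. None of the receptor windows held any of 5 longer motifs, DR1 (AGNTCANAGNTCA), DR3 (AGNTCANNNAGNTCA), DR4 (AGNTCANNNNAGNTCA), ER6 (TGANCTNNNNNNAGNTCA) and IR1 (AGNTCANTGANCT), the names for direct, everted and inverted repeats of the receptor half-site with 1, 3, 4 or 6 bases between them. DR1 was the most frequent of them and was in 0.152% of all windows, so the absence describes these letters in these windows and nothing more.

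Nr5a2 encodes LRH-1, which raises bile acid synthesis genes and is also used in the exocrine pancreas. Its 3 probe sets gave differences of unlike size. The main one, 1390965_at, read 8.58 to 9.08 in vehicle livers, 8.67 to 8.92 at 0.1 mg/kg, 8.69 to 8.95 at 15 mg/kg and 8.64 to 8.88 at 50 mg/kg, a log2 difference of -0.02 at 50 mg/kg. The 3 arrays that carried pancreas transcripts read 8.92, 8.82 and 8.69 with it, within the range of the others. For 1387573_a_at the log2 difference was -0.36 at 50 mg/kg (95% interval -0.77 to 0.06, adjusted p = 0.477), where replicate 1 read 6.06 and the other 4 arrays 6.89 to 7.14. For 1384835_at it was -0.14, -0.13 and -0.13 at 0.1, 15 and 50 mg/kg.

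Nr1h3 encodes LXR-alpha, the oxysterol receptor that raises cholesterol exporters and Srebf1. It read 8.82, 9.48, 9.47, 9.64 and 9.80 in vehicle livers, 9.55, 9.56, 9.31, 9.24 and 9.51 at 0.1 mg/kg, 9.60, 9.40, 9.47, 9.30 and 9.65 at 15 mg/kg and 9.36, 9.58, 9.57, 9.21 and 9.59 at 50 mg/kg. The lowest of the 20 was again vehicle replicate 1. The log2 difference at 50 mg/kg was 0.02 (95% interval -0.26 to 0.31), and -0.13 without that array.

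Ppara encodes PPAR-alpha, which responds to fatty acids and fibrates and raises genes of fatty acid oxidation. It read 6.65, 6.93, 6.60, 6.87 and 7.18 in vehicle livers, 7.14, 6.75, 6.57, 6.59 and 6.76 at 0.1 mg/kg, 6.97, 6.91, 7.02, 6.76 and 7.02 at 15 mg/kg and 6.89, 7.59, 7.31, 6.97 and 6.81 at 50 mg/kg. Replicates 2 and 3 at 50 mg/kg were the highest of the 20, and the other 3 arrays of that group lay among the vehicle arrays. The log2 difference at 50 mg/kg was 0.27 (95% interval -0.03 to 0.56, adjusted p = 0.444), and it lay between 0.15 and 0.35 as single arrays of those groups were left out. Its slope over dose order was 0.10 log2 units per step (unadjusted p = 0.0415, adjusted p = 0.322).

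Hnf4a encodes HNF4-alpha, which holds hepatocytes in their differentiated state. Its main probe set, 1392969_at, read 11.87, 11.77, 11.96, 12.00 and 11.61 in vehicle livers, 11.95, 11.88, 11.89, 11.92 and 11.57 at 0.1 mg/kg, 11.94, 11.69, 11.68, 11.74 and 11.66 at 15 mg/kg and 11.75, 11.56, 11.84, 11.44 and 11.71 at 50 mg/kg. Of the 10 arrays at 15 and 50 mg/kg, 9 lay below the vehicle median of 11.87, but vehicle replicate 5 was lower than 8 of the 10. The log2 difference at 50 mg/kg was -0.18 (95% interval -0.37 to 0.01, adjusted p = 0.423) and the slope was -0.06 per step (unadjusted p = 0.0416, adjusted p = 0.323). The probe sets of this gene disagreed in direction: at 50 mg/kg the log2 difference was 0.13 for 1382496_at and -0.06 for 1369289_at.

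Nr3c1 encodes the glucocorticoid receptor, which hepatocytes use to answer cortisol-like hormones and which also supports the expression of Nr1i2 and Nr1i3. Its main probe set, 1368221_at, read 9.35 to 9.53 in vehicle livers, 9.11 to 9.52 at 0.1 mg/kg, 9.15 to 9.44 at 15 mg/kg and 9.09 to 9.53 at 50 mg/kg, with log2 differences of -0.09, -0.16 and -0.13 at 0.1, 15 and 50 mg/kg. The dim probe set 1368222_at had the smallest p of the 15 at 50 mg/kg: it read 3.98, 3.91, 4.07, 3.85 and 3.90 at 50 mg/kg, against 4.05, 4.28, 4.00, 4.04 and 4.33 in vehicle livers, a log2 difference of -0.20 (unadjusted p = 0.0224, adjusted p = 0.287). These values are near background and the groups overlapped.

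**Figure D2:**
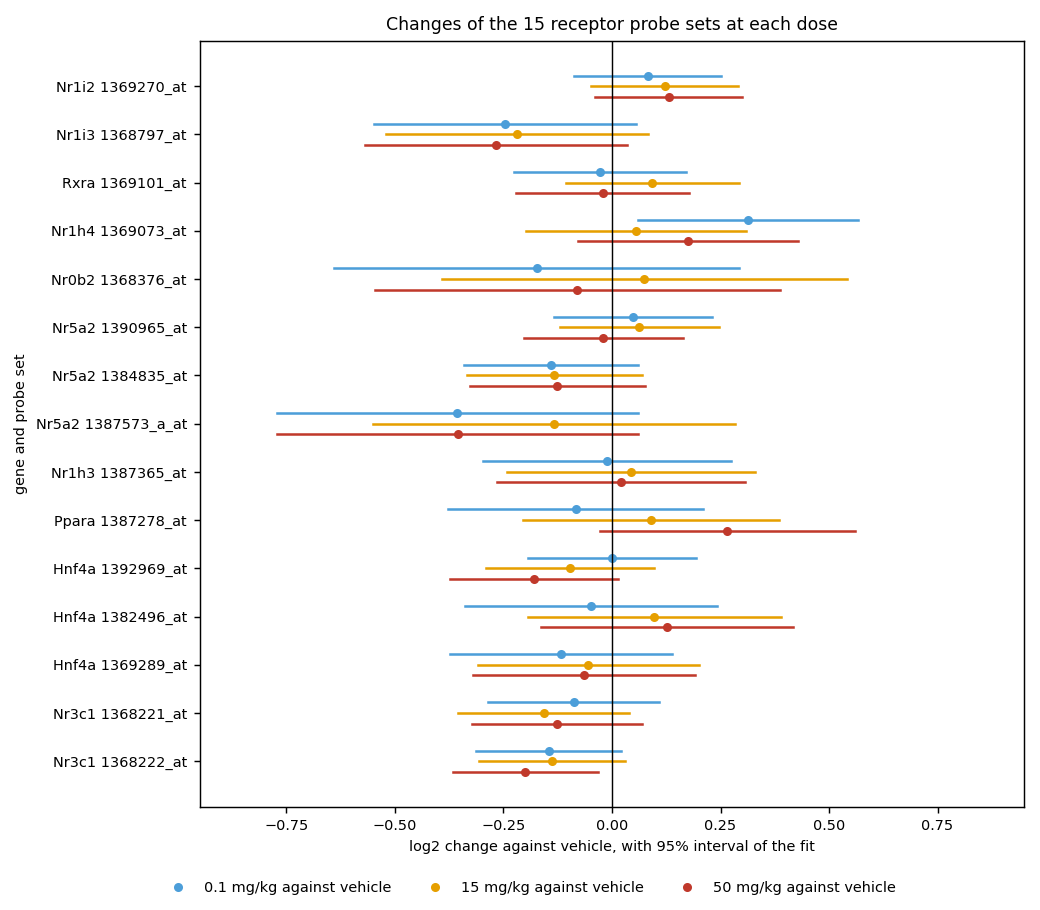
Log2 change against vehicle (horizontal axis) of each of the 15 receptor probe sets (vertical axis), with 0.1, 15 and 50 mg/kg from top to bottom in each row. Points are limma estimates from 5 arrays a group and lines their 95% intervals, and all but 2 of the 45 intervals cross 0: the exceptions are Nr1h4 at 0.1 mg/kg (0.06 to 0.57) and the dim Nr3c1 probe set at 50 mg/kg (-0.37 to -0.03).

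The other tests of the design gave the same count. Between 50 and 15 mg/kg, 0 of 15 probe sets were called, with a smallest adjusted p of 0.901 and 0% called over all probe sets, and the ranges overlapped for all 15, where 1.01% of all probe sets had separate ranges. In the slope over the order vehicle, 0.1, 15 and 50 mg/kg, 0 were called, while 1.45% of all probe sets were (0.96% with a rising and 0.486% with a falling slope), and 3 had an unadjusted p under 0.05 (Ppara, the main Hnf4a probe set and the dim Nr3c1 one). In the F test for any difference among the 4 groups, 0 were called (smallest adjusted p = 0.527), against 0.528% of all probe sets. The median size of the change at 50 mg/kg was 0.13 log2 units over the 15 probe sets and 0.09 over all probe sets.

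By the SD of their main probe sets, Nr0b2, Nr1i3, Nr1h3, Nr5a2 and Nr1i2 varied more among vehicle arrays than within any dosed group. For Nr1i2 the SDs were close, 0.16 in vehicle livers and 0.14 at 50 mg/kg. Over the 45 pairs of receptors the closest was Nr0b2 and Nr1h3, with Pearson r = 0.735 (permutation p = 0.00121, adjusted over 45 pairs 0.0544) and Spearman rho = 0.588 (permutation p = 0.00736, adjusted 0.166), n = 20 arrays. The relation rests on few arrays: r was 0.332 without the 2 arrays farthest from the Nr0b2 median and 0.243 without the vehicle arrays. Of the 45 pairs, 0 passed after adjustment. By the same measure, as a description with no test over 14216 other genes and 20 arrays that share one normalization, the genes whose values ran most like a receptor were Sigirr (r = 0.84) and Zmat5 (r = 0.83) for Nr1h3, Zmat5 (r = 0.79) and Egfl7 (r = 0.78) for Nr0b2, Cbfb (r = 0.84) and Tdp2 (r = 0.82) for Nr3c1, and Dpp6 (r = 0.83) and Cask (r = 0.72) for Nr1h4. For Hnf4a they were Fkbp5 (r = 0.76) and Tars1 (r = 0.75), for Ppara Pdlim5 (r = 0.78) and Aldh4a1 (r = 0.76), for Nr5a2 Cln3 (r = 0.79) and Efhd1 (r = 0.76), and for Nr1i3 LOC102551615 (r = 0.83) and Rpp25 (r = 0.78). For Nr1i2 and Rxra the closest gene was less alike than for the others, with Sys1 (r = 0.74) and Fabp2 (r = 0.72) for Nr1i2 and Wfdc6a and Entr1 (r = 0.69 each) for Rxra.

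**Figure D3:**
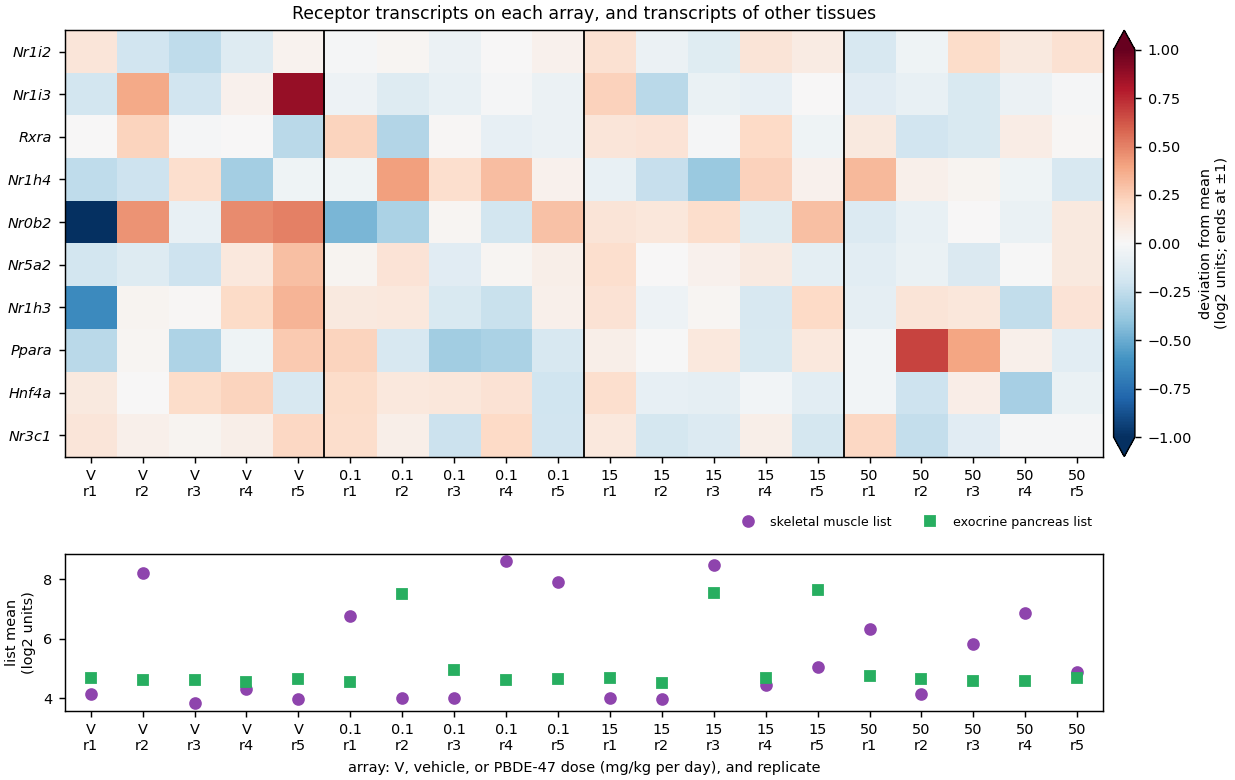
Upper panel: deviation of each receptor's main probe set (rows) from its mean over the 20 arrays, in log2 units by colour with ends at 1 and -1, for every array (columns). Lower panel: mean log2 value of the skeletal muscle and exocrine pancreas lists on the same arrays. The strongest 2 colours fall on vehicle arrays, Nr0b2 on replicate 1 and Nr1i3 on replicate 5, neither of which carries muscle or pancreas transcripts.

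The rest of the family and the proteins that work with the receptors gave 1 call. Of 31 other nuclear receptors listed, 27 were measured, and 0 were called at any dose, with a median log2 change of 0.00 at 50 mg/kg, against 0.01 over all genes. Nr2f1, which encodes the orphan receptor COUP-TFI, had the third smallest p of these, with a log2 difference of -0.17 (adjusted p = 0.329). Of 31 coregulators and partners, 26 were measured, and 1 was called lower at 50 mg/kg, where 0.348% of all probe sets were. It was Crebbp, a histone acetyltransferase that nuclear receptors recruit. Crebbp read 8.45, 8.31, 8.38, 8.27 and 8.35 at 50 mg/kg, against 8.58, 8.60, 8.56, 8.68 and 8.68 in vehicle livers, so all dosed arrays lay below all vehicle arrays. The log2 change was -0.27 (SE 0.06, adjusted p = 0.0362). The call was fragile: it was lost without any 1 of vehicle replicates 2, 3, 4 and 5 or of 50 mg/kg replicates 2, 3, 4 and 5 (adjusted p of 0.0512 to 0.115), and the other 4 Crebbp probe sets had log2 differences of -0.09 to 0.02. Fkbp5, a chaperone partner of the glucocorticoid receptor and one of its targets, had a log2 difference of -0.31 (adjusted p = 0.226), and Ncoa6, a coactivator, -0.24 (adjusted p = 0.230).

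While the CAR and PXR transcripts did not pass the test, genes known to answer these receptors did. Of 27 such genes listed, 22 had a single-symbol probe set, which leaves out Cyp2b1 and Cyp2b2. At 50 mg/kg 15 of the 22 rose and 0 fell, with a median log2 change of 0.81, or 1.76-fold, where 0.586% of all probe sets were called higher and 0.348% lower. At 15 mg/kg 10 rose and 0 fell, with a median of 0.71, where 0.0934% of all probe sets were called higher and 0.0226% lower, and at 0.1 mg/kg 0 were called, with a median of -0.05. Over all genes the median change at 50 mg/kg was 0.01. The list was written with earlier results of these data known, so its direction is not independent evidence.

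Cyp2c6v1, a cytochrome P450 of drug metabolism, read 13.88, 13.69, 13.58, 13.79 and 13.77 at 50 mg/kg, against 11.54, 12.09, 11.71, 12.28 and 12.08 in vehicle livers, a log2 change of 1.80 (SE 0.13, adjusted p = 1.49e-07). Alas1, the enzyme that sets the pace of heme synthesis and is raised by both CAR and PXR, read 9.62 to 10.62 in vehicle livers, 10.34 to 10.65 at 0.1 mg/kg, 11.01 to 11.36 at 15 mg/kg and 11.53 to 12.05 at 50 mg/kg. Its log2 change was 1.52 at 50 mg/kg (SE 0.15, adjusted p = 1.35e-05) and 0.83 at 15 mg/kg (adjusted p = 0.0212). The ranges of Alas1 at 15 and 50 mg/kg did not touch the vehicle range or each other. Ephx1, microsomal epoxide hydrolase, rose by 1.19 log2 units at 50 mg/kg (adjusted p = 3.81e-05) and by 0.83 at 15 mg/kg (adjusted p = 0.00543). Leaving out those muscle- and pancreas-carrying arrays leaves 4 vehicle arrays, 1 at 0.1 mg/kg, 3 at 15 mg/kg and 2 at 50 mg/kg. The list's medians were then 0.77 at 50 mg/kg and 0.66 at 15 mg/kg. Most of the list's calls were lost, but with so few arrays a count of calls says little about the list.

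A pair of PXR genes is shown because their promoters hold the same element and their transcripts gave different calls. Both sequences are the 250 bases before the start on the minus strand of GRCr8, from RefSeq, chr12:14398804-14399053 for Cyp3a23-3a1 and chr12:14343858-14344107 for Cyp3a2, and capitals mark DR3, the direct repeat with 3 bases between its repeats that PXR with RXR-alpha binds in the rat CYP3A genes.
Cyp3a23-3a1: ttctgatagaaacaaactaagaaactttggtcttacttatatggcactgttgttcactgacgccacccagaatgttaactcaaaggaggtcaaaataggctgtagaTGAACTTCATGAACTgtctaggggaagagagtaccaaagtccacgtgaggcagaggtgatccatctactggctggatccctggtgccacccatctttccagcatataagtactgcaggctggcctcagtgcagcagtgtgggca
Cyp3a2: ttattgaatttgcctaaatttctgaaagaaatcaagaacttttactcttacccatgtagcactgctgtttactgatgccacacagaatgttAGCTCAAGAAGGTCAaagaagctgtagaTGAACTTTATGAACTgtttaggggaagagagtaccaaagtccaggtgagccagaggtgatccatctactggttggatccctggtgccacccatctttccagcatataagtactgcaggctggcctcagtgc
Cyp3a23-3a1 held 1 match, which began 144 bases before the start and reads on the opposite strand. Cyp3a2 held 2, at 159 bases on the strand of the gene and at 131 bases on the opposite strand. DR3 was in 26 of all 33469 windows, or 0.0777%, and among the 26 windows found for 25 of the 27 listed genes these were the only 2. Cyp3a23-3a1 read 13.62, 13.58, 13.63, 13.66 and 13.62 at 50 mg/kg, against 13.42, 12.67, 12.67, 12.84 and 12.63 in vehicle livers, a log2 change of 0.78 (SE 0.15, adjusted p = 0.00241). Cyp3a2 read 13.87, 13.68, 13.66, 13.75 and 13.73 at 50 mg/kg, against 13.61, 13.63, 13.59, 13.54 and 13.48 in vehicle livers, with no overlap, but its log2 difference of 0.17 (95% interval 0.04 to 0.29, adjusted p = 0.228) was not called. Both genes were bright at 50 mg/kg, Cyp3a23-3a1 at 13.58 to 13.66 and Cyp3a2 at 13.66 to 13.87, where the highest value of any probe set was 14.82. Differences between such bright values may be compressed on an array. Genes of this family are alike in sequence, so a probe set may also read its neighbours. The part of either in these values was not tested. A test of the difference between these genes was not run.

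**Figure D4:**
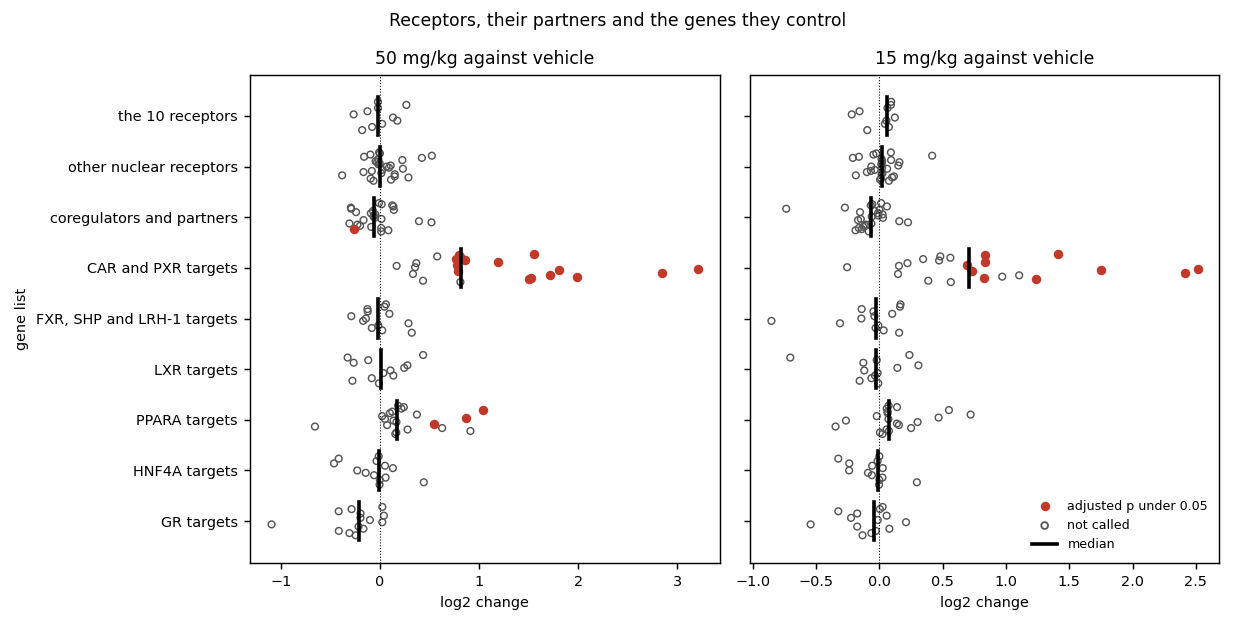
Log2 change (horizontal axis) of every measured gene of the receptor, partner and target lists (rows), at 50 mg/kg (left) and 15 mg/kg (right) against vehicle, as 1 point per gene with filled points for an adjusted p under 0.05 and a bar at the list's median. The receptors stay within -0.27 to 0.27 at 50 mg/kg, while the CAR and PXR targets run from 0.17 to 3.21 there.

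The genes that answer PPAR-alpha held 3 calls at 50 mg/kg, all higher, among 20 of 24 listed genes that were measured, with 0 lower, where 0.586% of all probe sets were called higher. The median log2 change was 0.17, and 19 of the 20 lay above 0. Pdk4, which spares glucose by blocking pyruvate oxidation, read 10.20, 10.00, 10.12, 10.02 and 10.25 at 50 mg/kg, against 9.25, 8.64, 9.16, 9.08 and 9.25 in vehicle livers, a log2 change of 1.04 (SE 0.12, adjusted p = 7.30e-05). Its second probe set gave 0.53 (adjusted p = 0.00577), and at 15 mg/kg the main one gave 0.55 (adjusted p = 0.0823). Cpt2, of the carnitine shuttle, rose by 0.54 log2 units (adjusted p = 0.0340) and Ehhadh, of peroxisomal fatty acid oxidation, by 0.87 (adjusted p = 0.0481), and both calls came and went as single arrays were left out: Cpt2 kept its call in 12 of 20 such fits, Ehhadh in 4 and Pdk4 in 20. The list's count was 1 without any 1 of vehicle replicates 3 and 4 or of 50 mg/kg replicates 2, 3, 4 and 5. Leaving out the muscle- and pancreas-carrying arrays leaves 2 arrays at 50 mg/kg, too few for a count of calls to say much. The list's median was then 0.22, and the log2 difference of Pdk4 was 0.94. At 15 and at 0.1 mg/kg 0 were called.

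The targets of the other receptors gave 0 calls at each dose. For FXR, SHP and LRH-1, 13 of 14 listed genes were measured, with a median of -0.02 at 50 mg/kg, and Scarb1, the hepatic receptor for high-density lipoprotein, read 9.43 to 9.82 at 50 mg/kg, against 9.68 to 10.13 in vehicle livers, a log2 difference of -0.29 (adjusted p = 0.152). Abcb11, the bile salt export pump that FXR raises, differed by 0.32 (adjusted p = 0.259), and Fetub, a liver-secreted protein, by -0.14 (adjusted p = 0.204). For LXR all 12 were measured, with a median of 0.01, and the 3 with the smallest p were Mylip, which leads to the breakdown of the LDL receptor (-0.27, adjusted p = 0.296), Lpcat3, which remodels phospholipids (0.24, adjusted p = 0.304), and the cholesterol exporter Abcg1 (-0.28, adjusted p = 0.312). For HNF4-alpha 13 of 16 were measured, with a median of -0.01, and the glycolytic enzyme gene Pklr had the smallest p (-0.46, adjusted p = 0.104), followed by Apom and F9 (-0.14 and -0.23). For the glucocorticoid receptor 14 of 16 were measured, 11 of them below 0, with a median of -0.21. Besides Fkbp5, named above, those with the smallest p were Pck1, the rate-setting gluconeogenic enzyme (-0.20, adjusted p = 0.446), and Lcn2, an acute-phase protein (-1.09, adjusted p = 0.472).

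Markers of liver macrophages (Kupffer cells) moved with the highest dose: 4 of 8 measured markers were called lower at 50 mg/kg and 0 higher, where 0.348% of all probe sets were called lower and 0.586% higher, the median log2 change was -0.47, and the list's mean was 8.97 to 9.38 at 50 mg/kg, against 9.57 to 9.76 in vehicle livers. Fewer such cells and less RNA per cell cannot be told apart in whole liver. Nr1h3 and Nr3c1 are also used by macrophages, and the part of this shift in their values was not tested. The count of called markers ranged from 1 to 5 as single arrays were left out. With the muscle- and pancreas-carrying arrays left out, which leaves 2 arrays at 50 mg/kg, the median was -0.50. A count of calls says little with so few arrays.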

How the data were processed

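Liver RNA of 20 samples was amplified and hybridised to 1 array each, per the labels' protocols. The deposited table holds log2 values that the authors summarized with RMA, per the submitters' processing notes. The RMA version is not given in the sources used here. Differences between bright values may be compressed on an array, and values near 2 to 4 are mostly background. The number of arrays limits the precision.

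Groups and replicate numbers come from the sample titles. After 57 control probe sets were left out, 31042 were fitted with 1 mean per group in limma 3.58.1 (R 4.3.3; lmFit, eBayes), with two-sided tests and Benjamini-Hochberg adjustment per contrast. The series names R/maanova for its own comparisons, which was not used here. Intervals are 95% intervals of the fit. Gene names come from the platform annotation and all 10 receptors matched RefSeq by gene ID. Where a gene had several single-symbol probe sets, the one of highest mean over the arrays was its main one. Every list count uses main probe sets only, while the shares set beside it are over all 31042 probe sets, dim ones included. The receptors, the target, partner and marker lists and the tests were chosen with earlier results of these data known. From each list up to 3 genes with the smallest p at 50 mg/kg were named, and Cyp3a23-3a1 and Cyp3a2 were added for their promoters after their values were seen. Correlations used 100000 permutations (SciPy 1.17.1). Promoters are RefSeq windows on GRCr8.

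Alternatives were array weights, other probe sets, a filter at a mean of 6, equal medians, quantile normalization again, a replicate block, a block for the leading digit of a number in the array descriptions, fits on only the groups compared, ordinary variances, robust shrinkage along an intensity trend, fits without the muscle- and pancreas-carrying arrays, and each array left out in turn. The code was tested on simulated data. Python 3.11.15 with matplotlib 3.10.9 drew the figures.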

Additional observations from a re-analysis of the deposited data

Results flagged for a closer look

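Of 60 sets of 5 arrays (15 receptor probe sets in 4 groups), 4 held an array far from the rest, by a gap to the nearest array above Dixon's 95% limit. Chance alone flags about 5% of such sets. The main Hnf4a probe set, 1392969_at, read 11.941 on 15 mg/kg replicate 1, where the other 4 arrays read 11.665 to 11.744. The same probe set read 11.57 on 0.1 mg/kg replicate 5, against 11.878 to 11.955 on the other 4. The Hnf4a probe set 1382496_at read 7.225 on 15 mg/kg replicate 4, against 7.418 to 7.485. The Nr5a2 probe set 1387573_a_at read 6.055 on 50 mg/kg replicate 1, against 6.893 to 7.141. Of these 4 arrays, 0.1 mg/kg replicate 5 and 50 mg/kg replicate 1 were among those that carried muscle transcripts.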

How the results depend on the processing

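The count of receptor probe sets called was 0 in all 6 tests with each of 20 arrays left out and under each of 10 alternatives, except that the slope and the F test need all groups and were not fitted to only the groups compared. With the replicate number as a block it was 0 too. Over all 31042 probe sets the calls at 50 mg/kg numbered 290 in the main fit. They numbered 89 with only the groups compared and 106 without 50 mg/kg replicate 4. At 0.1 mg/kg and between 50 and 15 mg/kg the main fit called 0 over all probe sets. A count of 0 among 15 is what a set of this size would hold at such rates. Residual correlations of same-numbered dosed and vehicle arrays ran from -0.36 to 0.29 over 15 pairs, with 4 above 0.1. Arrays of unlike number were not compared, so these values cannot decide whether the numbers pair the samples. The lowest adjusted p of any receptor probe set over these settings was 0.205 in the dose contrasts and 0.157 in the slope, without 0.1 mg/kg replicate 5. Some log2 differences near 0 changed sign. With the muscle- and pancreas-carrying arrays left out Nr0b2 was 0.067 and Nr5a2 0.013 at 50 mg/kg, and at 0.1 mg/kg, where 1 array was left, Nr1i2 was -0.00015, Rxra 0.084, Nr0b2 0.078 and Nr5a2 -0.116. With array weights Nr1h3 was -0.022 at 50 mg/kg and Nr0b2 -0.019 at 15 mg/kg. At 0.1 mg/kg the description block gave 0.0070 for Nr1h3 and -0.015 for Hnf4a, another quantile normalization 0.016 for Nr1h3 and equal medians -0.013 for Hnf4a. With other probe sets Hnf4a was 0.127 at 50 mg/kg, 0.098 at 15 mg/kg and -0.118 and -0.049 at 0.1 mg/kg, and Nr5a2 was -0.133 with both at 15 mg/kg and -0.141 and -0.356 at 0.1 mg/kg. The cause was not tested. With single arrays left out, the signs also turned at 50 mg/kg for Rxra (-0.086 to 0.037), Nr0b2 (-0.371 to 0.034), Nr5a2 (-0.066 to 0.061) and Nr1h3 (-0.135 to 0.110), at 15 mg/kg for Nr1h4 (-0.023 to 0.132), Nr0b2 (-0.217 to 0.189) and Nr1h3 (-0.113 to 0.132), and at 0.1 mg/kg for Rxra (-0.093 to 0.035), Nr1h3 (-0.167 to 0.077) and Hnf4a (-0.058 to 0.068). The called CAR and PXR targets numbered 13 to 15 at 50 mg/kg and 7 to 11 at 15 mg/kg with single arrays left out. They numbered 13 and 6 with only the groups compared. Most of these calls were lost without the muscle- and pancreas-carrying arrays, which leaves 2 arrays at 50 mg/kg and 3 at 15 mg/kg. The list's medians were then 0.77 and 0.66. The Crebbp call was also lost with the replicate block (adjusted p = 0.0711), the description block (0.0589), only the groups compared (0.107), another quantile normalization (0.0502) and without the arrays of other tissues (0.570), which leaves 2 arrays at 50 mg/kg. Its log2 change was -0.27 under both blocks and with only the groups compared, -0.25 with the quantile normalization and -0.30 without those arrays.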
